A study of Mus musculus with 6 samples.

Results

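Endothelial cells (ECs) of the thymus can make secreted factors that act on thymic progenitors or on the thymic epithelium, and 6 genes for such factors, Kitl, Il7, Il15, Csf1, Bmp4 and Wnt5a, were described across 3 subsets of thymic ECs. They were taken by gene name from the 24457 gene rows in each library, in a choice made with earlier results of these data known. The subsets came from the thymus of wild-type female C57BL/6 mice of 4 to 6 weeks and were sorted by flow cytometry as CD31+CD45-EpCAM- cells with a purity of at least 90%. Type I ECs were Ly6C+Selp-, type II ECs were Ly6C+Selp+ and type III ECs were Ly6C-Selp+, with Selp standing for P-selectin, and 2 libraries of each subset were sequenced, 6 in all. The labels do not say whether the libraries of a subset came from separate mice, so the p-values below measure the spread between these libraries, which may be technical. The values are FPKM, the fragments of a gene scaled by transcript length and by the depth of the library, so that levels of different genes can be set side by side.

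Progenitors that enter the thymus meet a niche formed by epithelium, mesenchyme and vessels. Kitl encodes stem cell factor, the ligand of the receptor Kit on early T-cell progenitors, and exists in a membrane-bound and a shed form. Il7 and Il15 encode cytokines whose receptors share the common gamma chain, IL-7 for early thymocytes and IL-15 for natural killer cells and memory-type CD8 T cells, and IL-15 is presented on its own receptor chain. Csf1 encodes the growth factor of macrophages. Bmp4 encodes a bone morphogenetic protein that acts on thymic epithelium and its transcription factor Foxn1, and Wnt5a encodes a Wnt ligand that signals mostly without beta-catenin.

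On mm9, the build of the files, Kitl lies on the plus strand at chr10:99478458-99563046 and Csf1 on the minus strand at chr3:107543966-107563387. Bmp4 lies on the minus strand at chr14:47003196-47010274 and Wnt5a on the plus strand of the same chromosome at chr14:29318659-29338701. Il7 is on the minus strand at chr3:7572077-7613427 and Il15 on the minus strand at chr8:84855523-84926485. All 6 are annotated as protein-coding in GENCODE release M1, and each had 1 row per library, which sums the isoforms. The 4 protein-coding transcripts annotated for Kitl and the 6 for Csf1 were therefore not told apart, and neither were membrane-bound and shed forms.

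Promoter sequences of RefSeq on GRCm38.p6, a later build than that of the files, were found for 3 of the 6 genes, and these were also the 3 with the highest means over all 6 libraries. They are shown so that the gene that differed between subsets can be read beside a pair that did not pass the test. Each holds 250 bases before and 50 bases after the start of the gene. Capitals mark the GC box GGGCGG, the TATA box TATAAA and the E-box CACGTG on either strand. They come from chr14:46390620-46390919 (minus strand) for Bmp4, chr10:100015571-100015870 (plus strand) for Kitl and chr3:107760420-107760719 (minus strand) for Csf1.
Bmp4: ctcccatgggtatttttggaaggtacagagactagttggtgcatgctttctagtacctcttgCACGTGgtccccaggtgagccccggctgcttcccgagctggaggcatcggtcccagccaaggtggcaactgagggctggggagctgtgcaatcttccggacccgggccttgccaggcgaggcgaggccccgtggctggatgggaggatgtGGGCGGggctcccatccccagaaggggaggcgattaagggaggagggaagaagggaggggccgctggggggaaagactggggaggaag
Kitl: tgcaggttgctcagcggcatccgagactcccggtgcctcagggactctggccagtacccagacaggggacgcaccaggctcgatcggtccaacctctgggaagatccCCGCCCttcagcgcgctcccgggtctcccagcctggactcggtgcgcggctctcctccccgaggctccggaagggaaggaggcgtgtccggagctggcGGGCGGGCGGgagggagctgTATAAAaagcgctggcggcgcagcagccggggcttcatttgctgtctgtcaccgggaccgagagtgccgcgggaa
Csf1: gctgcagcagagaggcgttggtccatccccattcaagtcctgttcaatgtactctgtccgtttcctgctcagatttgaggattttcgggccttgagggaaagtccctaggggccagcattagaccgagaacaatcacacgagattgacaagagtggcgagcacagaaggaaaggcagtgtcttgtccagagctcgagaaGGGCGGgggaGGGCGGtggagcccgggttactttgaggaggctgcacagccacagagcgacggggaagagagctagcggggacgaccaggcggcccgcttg
The Bmp4 promoter held 12 CpG dinucleotides, more than 60.4% of the 32851 promoters of this length in the table, with 16 for Csf1 (67.0%) and 28 for Kitl (85.8%). A GC box was found 1 time for Bmp4, 2 times for Csf1 and 3 times for Kitl, where the matches at -45 and -41 from the start share letters, and 35.7% of all promoters hold at least 1. The E-box, at -188 in Bmp4, was not in the other two and was found in 7.2% of all promoters. The TATA box, at -25 in Kitl, was not in the other two and was found in 13.6%. The core CCGGAA of sites for ETS factors was found 1 time each in Bmp4 and Kitl and in 14.9% of all promoters. These 4 motifs were searched on both strands, where they may overlap each other, and a match is a description of the letters alone.

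Across the libraries, fragments read back from the deposited intervals summed to between 1452476 and 2423171, and the summed FPKM lay between 221458 and 300932. The 9 endothelial markers (such as Pecam1, Cdh5 and Tie1) were detected in all 6 libraries and summed to an FPKM of 2129 to 2755. Between type III and type I ECs, Eng among them was higher, by 1.10 on the log2 scale, and Kdr and Cldn5 were lower, with log2 fold changes of -1.49 and -3.70 (limma adjusted p = 0.040, 0.0079 and 0.00025), so the steady sum held members that moved in opposite directions. Transcripts of other thymic cells were present too and differed between libraries of a subset. Myeloid markers (10 genes) summed to 401 and 60.3 in replicates 1 and 2 of type I ECs, 161 and 61.3 in type II ECs and 636 and 117 in type III ECs. Thymocyte markers (13 genes) summed to 120 and 31.9, 80.8 and 49.6, and 211 and 95.2 in the same order, and thymic epithelial markers (14 genes) to 138 and 45.5, 85.7 and 57.9, and 129 and 30.2. In each subset the library labelled replicate 1 was the higher for 9 of the 10 myeloid, 11 of the 13 thymocyte and 8 of the 14 epithelial markers. Ptprc was on both the thymocyte and the myeloid list, and of the epithelial markers Krt14 was listed at 0 in both type II libraries. Fibroblast and mural markers (13 genes) had their lowest sums in type III ECs, 267 and 325. The sums were 780 and 376 in type I ECs and 880 and 573 in type II ECs. Rgs5 was a large part of them, at 346 and 114, 284 and 137, and 48.6 and 45.4 from type I to type III. Between type III and type I ECs, Pdgfrb and Notch3 alone of the 13 were called, as lower (limma adjusted p = 0.013 and 0.021). Over all tested genes 2.05% were called lower. Dcn and Lum overlapped between these subsets, and Acta2 was higher in both type III libraries. In a bulk library, a cell type that is rarer and a cell type with less RNA per cell cannot be told apart.

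**Figure D1:**
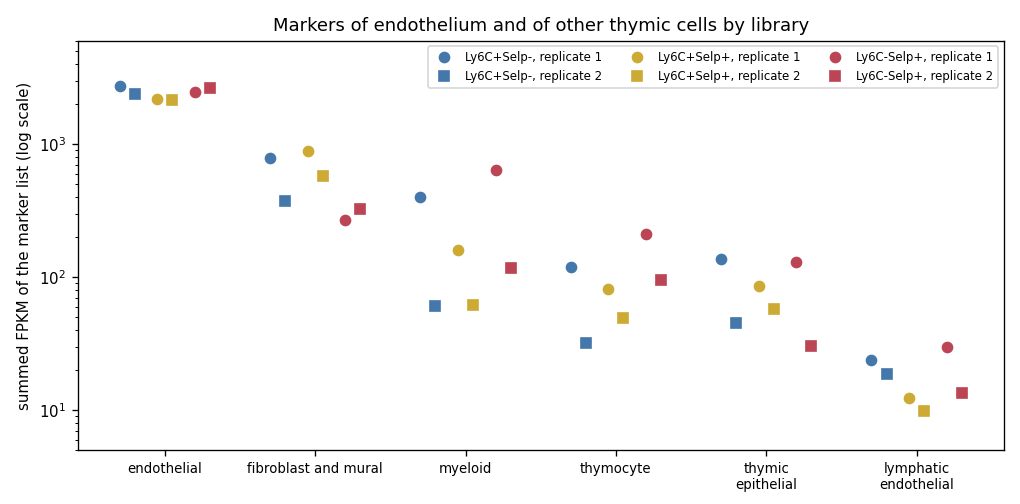
Summed FPKM (log scale) of the marker lists of endothelium and other thymic cells, 1 point per library, coloured by subset (Ly6C+Selp- is type I, Ly6C+Selp+ type II and Ly6C-Selp+ type III), with circles for replicate 1 and squares for replicate 2. The endothelial sum stays between 2129 and 2755, and the myeloid, thymocyte and epithelial sums are higher in replicate 1 of each subset.

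Bmp4 rose from type I to type III ECs, and Kitl, Csf1 and Il15 were present in all 3 subsets without a difference that passed the test. Mean FPKM of Bmp4 was 8.09 times as high in type III as in type I ECs. Il7 and Wnt5a were at or near the limit of detection. A filter that asked for an FPKM of 1 or more in 2 or more libraries left 11717 genes for the limma fit, with 4 of the 6 among them, and these 4 reached that level in each of the 6 libraries. Between type III and type I ECs, 1 of the 4 passed a limma adjusted p of 0.05, where 4.14% of all tested genes did so and 2.09% were higher in type III ECs. None of the 4 passed between type II and type I ECs, where 0.393% of tested genes did (0.324% higher and 0.0683% lower), or between type III and type II ECs, where 0.222% did (0.0939% higher and 0.128% lower). At an unadjusted p under 0.05, Bmp4 alone of the 4 passed in each of those comparisons, against 7.48% and 9.99% of all tested genes. The median log2 fold change of the 4 genes was 0.03, -0.12 and 0.15 in the 3 comparisons in this order, against 0.08, -0.06 and 0.14 over all tested genes.

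**Figure D2:**
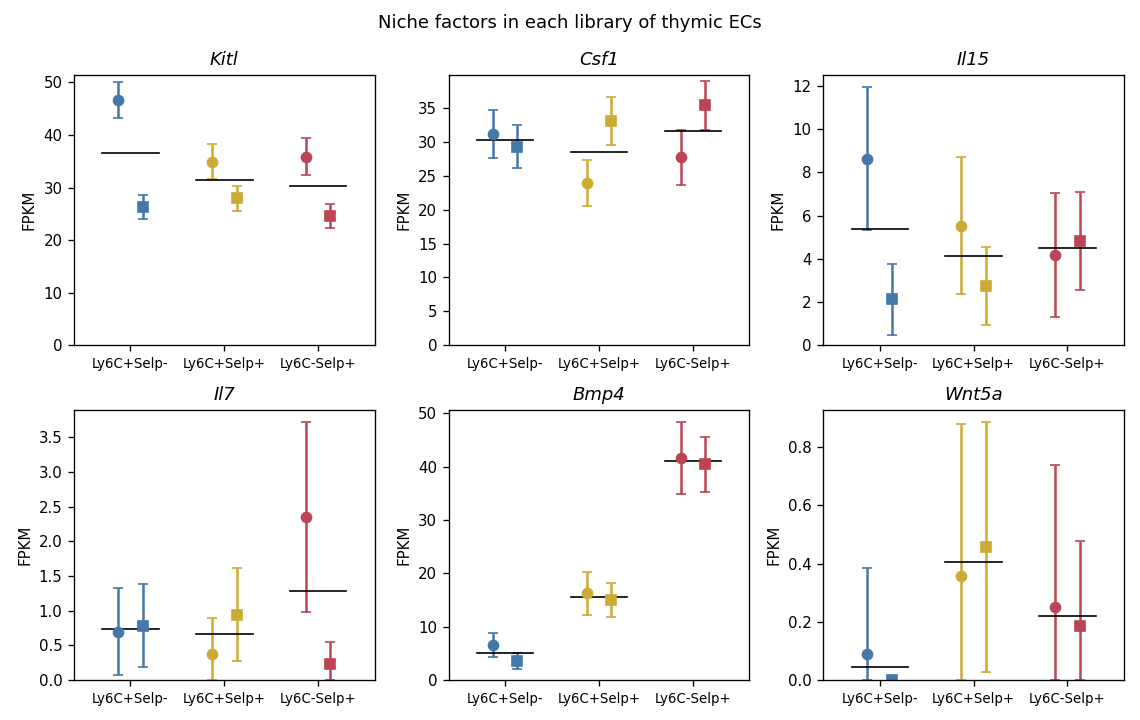
FPKM of the 6 factors in each library of the 3 subsets, with circles for replicate 1, squares for replicate 2, bars for the deposited 95% interval and a line at the mean of 2 libraries. Bmp4 steps up from 6.58 and 3.56 through 16.2 and 15.0 to 41.6 and 40.4, while the libraries of Kitl, Csf1 and Il15 overlap between subsets.

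Kitl, the ligand of Kit, had the highest mean of the 6 in type I ECs. Its FPKM was 46.7 and 26.4 in the type I libraries, 34.9 and 27.9 in the type II libraries and 35.9 and 24.6 in the type III libraries. It lay above at least 92.6% of all genes in each library, on 423 to 763 estimated fragments. Replicate 1 was the higher library in each subset, with deposited 95% intervals that did not overlap those of replicate 2, and the subsets overlapped. The means were 36.5 ± 14.4, 31.4 ± 4.9 and 30.3 ± 8.0 (SD, n = 2), and no neighbours in that order differed beyond their spread. Between type III and type I ECs the log2 fold change was -0.23 (95% interval -0.98 to 0.51, limma adjusted p = 0.85). It was -0.37 within replicate 1 and -0.10 within replicate 2, and 0.17 without type I replicate 1 and 0.03 without type III replicate 2. The order of the libraries within each subset is also that of the thymic epithelial and myeloid marker sums given above. It is that of the summed FPKM too, at 299303 and 221458, 261233 and 229036, and 300932 and 272220. The part of those cells in the Kitl level, or of the library scaling in that order, was not tested. Kit itself had an FPKM of 7.03 and 7.19, 6.42 and 5.95, and 15.5 and 12.1, with type III libraries above the others, but the log2 fold change of 0.86 did not pass (limma adjusted p = 0.17).

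Csf1, the macrophage growth factor, was present at a level close to that of Kitl in all 3 subsets. Its FPKM was 31.1 and 29.3 in the type I libraries, 24.0 and 33.1 in the type II libraries and 27.7 and 35.4 in the type III libraries, on 186 to 390 estimated fragments. All subsets overlapped, with means of 30.2 ± 1.3, 28.5 ± 6.5 and 31.5 ± 5.4 (SD, n = 2). The log2 fold change between type III and type I ECs was 0.05 (95% interval -0.55 to 0.66, limma adjusted p = 0.97), and its sign turned in 4 of the 16 alternatives, 1 of them without a library (-0.12 without type III replicate 2) and 3 with another scaling. Csf1 exceeded Kitl in replicate 2 of each subset and Kitl exceeded Csf1 in replicate 1 of each subset, so the order of their levels was not the same in all libraries. Csf1r, the receptor and a myeloid marker, had an FPKM of 11.3 and 1.18, 5.60 and 2.27, and 16.7 and 3.45, and moved with the other myeloid markers between replicates. Csf1 was the higher in replicate 1 of type I ECs and the lower in replicate 1 of type II and type III ECs, and the part of myeloid cells in its level was not tested.

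Il15 was detected at a low level in all 6 libraries. Its FPKM was 8.62 and 2.13 in the type I libraries, 5.53 and 2.74 in the type II libraries and 4.18 and 4.82 in the type III libraries, on 6.8 to 27.1 estimated fragments, where 3 fragments correspond to an FPKM of 0.83 to 1.45. The spread within the type I subset covered the values of both other subsets. The log2 fold change between type III and type I ECs was 0.00 (95% interval -1.18 to 1.18, limma adjusted p = 1.0), but -0.89 within replicate 1 and 0.89 within replicate 2. It was -0.81 without type I replicate 2, -0.08 without type III replicate 2 and 0.81 without type I replicate 1. Il15ra, the chain that presents IL-15, was at 7.15 and 5.50, 7.0 and 5.58, and 6.00 and 5.31, and also did not pass (limma adjusted p = 0.92).

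Il7 was not tested, since its FPKM reached 1 in 1 library. It was 0.70 and 0.79 in the type I libraries, 0.37 and 0.95 in the type II libraries and 2.35 and 0.23 in the type III libraries. These values rest on 2.0 to 11.9 estimated fragments, and in type II replicate 1 and type III replicate 2 they lay under the level of 3 fragments. The highest and the lowest value came from the same subset, and a difference between subsets was not detectable at this depth. Thymic epithelial cells are the best known source of IL-7, and the epithelial markers summed to 129 and 30.2 in the type III libraries and to 138 and 45.5 in the type I libraries. In type II ECs they summed to 85.7 and 57.9. The library with more Il7 was the one with more epithelial transcripts in type III ECs and the one with fewer in type I and type II ECs, and the part of epithelial cells was not tested.

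Bmp4 was the factor among the 4 tested that differed between subsets. Its FPKM was 6.58 and 3.56 in the type I libraries, 16.2 and 15.0 in the type II libraries and 41.6 and 40.4 in the type III libraries. No libraries of different subsets overlapped, and the values stood in the order type I, type II and type III, a rising order without overlap that 4.14% of all tested genes had. Libraries did not overlap for 37.9% of tested genes between type III and type I ECs (20.7% higher in type III), for 33.6% between type II and type I ECs (13% higher in type II) and for 41% between type III and type II ECs (27.7% higher in type III), and Kitl, Csf1 and Il15 overlapped in all 3 comparisons. The means were 5.07 ± 2.13, 15.6 ± 0.9 and 41.0 ± 0.8 (SD, n = 2), on 22.8 to 245 estimated fragments per library. With these values Bmp4 went from above 71.3% and 75.0% of all genes in the type I libraries to above 95.3% and 95.6% in the type III libraries. Between these subsets the log2 fold change was 2.84 (standard error 0.30, 95% interval 2.15 to 3.52, limma adjusted p = 0.0012). Taken by replicate number, it was 2.49 in replicate 1 and 3.18 in replicate 2. It passed in all 16 alternatives, with a log2 fold change between 2.47 and 3.20 and a limma adjusted p of 0.013 at most.

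Neither step between neighbouring subsets passed on its own in this fit. From type I to type II ECs the log2 fold change was 1.5 (standard error 0.30, 95% interval 0.81 to 2.19) and did not pass (limma adjusted p = 0.11). It passed in 4 of the 16 alternatives, with an adjusted p of 0.022 in limma after scaling all libraries to the same FPKM sum. From type II to type III ECs it was 1.34 (standard error 0.30, 95% interval 0.65 to 2.03, limma adjusted p = 0.14), and it passed in 1 of the 16 alternatives. Since these comparisons share the type II libraries, their fold changes are not independent. The smallest p that 2 libraries against 2 allow in an exact permutation test is 0.33.

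The rise of Bmp4 could also be read inside each library, where depth and scaling cancel. Bmp4 amounted to 0.141 and 0.135 of the Kitl level in the type I libraries, 0.465 and 0.538 in the type II libraries and 1.16 and 1.64 in the type III libraries. Bmp4 was thus below Kitl and Csf1 in all 4 Ly6C+ libraries and above both in the 2 type III libraries. The deposited 95% interval of Bmp4 overlapped that of Kitl in type III replicate 1 and that of Csf1 in type III replicate 2. Relative to Pecam1, which encodes CD31, Bmp4 was at 0.0098 and 0.0072, 0.0221 and 0.0223, and 0.0480 and 0.0499. Relative to Bmp6, another BMP ligand, it was at 0.261 and 0.182, 0.728 and 0.525, and 0.859 and 0.690. In this last ratio the type II and type III libraries overlapped. Fibroblast and mural markers had their lowest sums, 267 and 325, in the type III libraries, where Bmp4 was highest. Among these markers Rgs5 weighed heavily, at 346 and 114 in the type I and 48.6 and 45.4 in the type III libraries. Of that list, Dcn and Lum overlapped between type III and type I libraries, and Acta2 was higher in the type III libraries. In the same libraries, where Bmp4 was at 41.6 and 40.4, the myeloid sum was 636 and 117 and the epithelial sum 129 and 30.2. Lymphatic endothelial markers (4 genes) summed to 30.1 and 13.3 in type III, 12.4 and 9.85 in type II and 23.9 and 18.7 in type I libraries. Prox1 among them had an FPKM of 0.32 and 0.52, 0.53 and 1.09, and 3.05 and 3.22, and Lyve1 was listed at 0 in 3 of the 4 Ly6C+ libraries and was at 12.4 and 1.07 in type III ECs. Flt4 had its highest values in type I libraries, with 20.04 and 16.7 there, 7.21 and 7.0 in type II and 9.45 and 7.15 in type III libraries, and Pdpn overlapped between subsets, at 3.50 and 1.40, 4.64 and 1.64, and 5.18 and 1.90. The part of any of these other cells in the Bmp4 level was not tested.

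**Figure D3:**
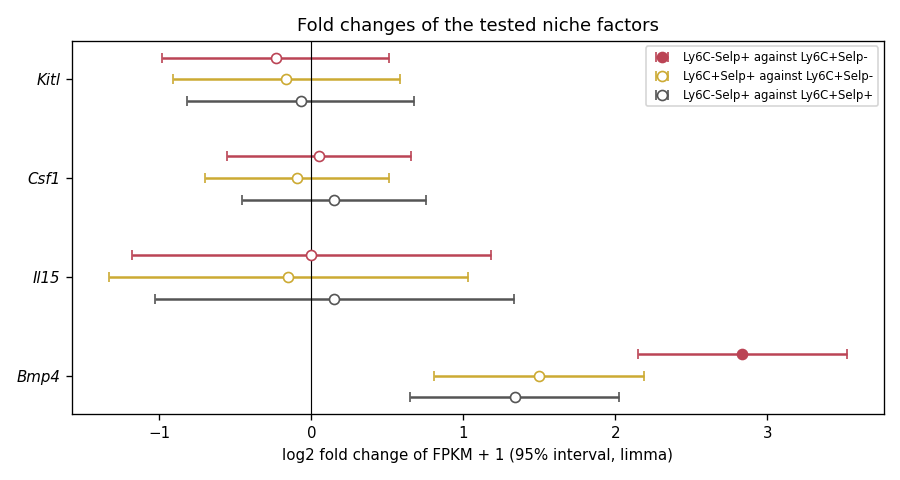
Log2 fold changes of FPKM + 1 of the 4 tested factors in the 3 comparisons, with limma's 95% intervals and filled points where the adjusted p was below 0.05. The only filled point is Bmp4 in type III against type I ECs at 2.84, and the intervals of Kitl, Csf1 and Il15 all cover 0.

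Among 6658 other genes with a mean FPKM of at least 5, the 3 whose log2(FPKM + 1) followed Bmp4 most closely over the 6 libraries were Pam, Angpt2 and Pdlim1. Their Pearson r with Bmp4 was 0.998, 0.998 and 0.996, a description over 6 points that share the subsets and the scaling of each library. Pam, which encodes an enzyme that amidates secreted peptides, had an FPKM of 28.8 and 19.5, 54.4 and 45.8, and 102.6 and 98.3 from type I through type II to type III libraries. Angpt2, which encodes a ligand of the receptor TIE2, was at 13 and 9.49, 20.9 and 18.8, and 35.9 and 32.6. Pdlim1, a PDZ and LIM domain protein of the cytoskeleton, was at 190 and 157, 253 and 235, and 330 and 349. The type III means exceeded the type I means by a smaller ratio for all 3 than for Bmp4.

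Wnt5a was at the limit of detection. Its FPKM was 0.09 in type I replicate 1 and listed at 0 in replicate 2, 0.36 and 0.46 in the type II libraries and 0.25 and 0.19 in the type III libraries. In 5 of the 6 libraries this was under the level of 3 fragments, which was 0.34 to 0.59, and the lower bound of the deposited interval was above 0 in type II replicate 2 alone. Wnt5a did not pass the filter on low values and was not tested, and no difference between subsets was detectable at this depth.

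The genes around the 6 factors were taken from 4 lists of 67 genes, of which 47 were tested. Between type III and type I ECs, 3 were higher and 4 were lower by limma's threshold, against 2.09% and 2.05% of all tested genes. Among the higher genes, Rspo3 passed the filter on low values through the type III libraries alone. Between type II and type I ECs none passed, where 0.393% of all tested genes did. At an unadjusted p under 0.05 in limma 9 did so, against 7.48% of all tested genes. Between type III and type II ECs Cxcl12 alone passed, as lower, where 0.222% of all tested genes passed and 0.128% were lower. There 11 passed at an unadjusted p under 0.05 in limma, against 9.99% of all tested genes. Of the 17 receptors for the 6 factors, 15 were tested. Between type III and type I ECs 1 was called, as higher, where 4.14% of all tested genes were called and 2.09% were higher. The median log2 fold change of the tested receptors was 0.43 in that comparison, against 0.08 over all tested genes.

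That receptor was Il2rg, the common gamma chain shared by the receptors of IL-7 and IL-15. Its FPKM was 61.9 and 46.5 in the type I libraries, 92.3 and 98.9 in the type II libraries and 148 and 140 in the type III libraries. The log2 fold change from type I to type III ECs was 1.41 (standard error 0.24, limma adjusted p = 0.011), and it missed the threshold without type III replicate 1 (limma adjusted p = 0.10) or without type III replicate 2 (limma adjusted p = 0.077). Thymocytes express Il2rg, and their marker sum was 211 and 95.2 in the type III libraries, where Il2rg was at 148 and 140, and their part was not tested. The partner chains were low, with Il7r at 0 to 3.55 and Il2rb at 0.38 to 2.32, and neither passed. Among receptors of the other factors, Bmpr2, a receptor of BMPs, was at 16.8 to 27.0 and Fzd4, a Frizzled receptor, at 24.0 to 40.4, and neither passed (limma adjusted p = 0.53 and 0.36).

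Bmp6, another BMP ligand, was higher in type III ECs as well. It had an FPKM of 25.2 and 19.5 in the type I libraries, 22.3 and 28.6 in the type II libraries and 48.4 and 58.5 in the type III libraries. The Ly6C+ subsets overlapped, and both type III libraries lay above them. The log2 fold change between type III and type I ECs was 1.23 (standard error 0.27, limma adjusted p = 0.036), and the gene passed in 8 of the 16 alternatives. It missed the threshold without a filter on low values (limma adjusted p = 0.067), without the trend (0.082) and in a fit of the compared libraries alone (0.064). It also missed it without type I replicate 2, type II replicate 1, type II replicate 2, type III replicate 1 or type III replicate 2, with limma adjusted p-values of 0.16, 0.061, 0.067, 0.13 and 0.20. Bmp2 was at 7.85 and 5.38, 5.99 and 5.27, and 4.36 and 5.53 and did not pass (limma adjusted p = 0.75).

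Of the 5 BMP target genes 1 was called between type III and type I ECs, as lower, where 2.05% of all tested genes were called lower. The median log2 fold change of the 5 was -0.29, against 0.08 over all tested genes. Id1, an inhibitor of basic helix-loop-helix factors that BMP signals induce, had an FPKM of 305 and 216, 109 and 84.2, and 44.3 and 47.7 from type I through type II to type III libraries. Its log2 fold change between type III and type I ECs was -2.46 (limma adjusted p = 0.0011) and passed in all 16 alternatives. Id3 was at 267 and 201, 176 and 135, and 113 and 133, with a log2 fold change of -0.92 (limma adjusted p = 0.098). Id2 was at 14.9 and 9.31, 17.0 and 12.1, and 28.9 and 16.7, with a log2 fold change of 0.84 (limma adjusted p = 0.32). The inhibitory Smad7 was at 19.6 to 24.4 in all libraries and Smad6 at 10 to 14.7, and neither passed.

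**Figure D4:**
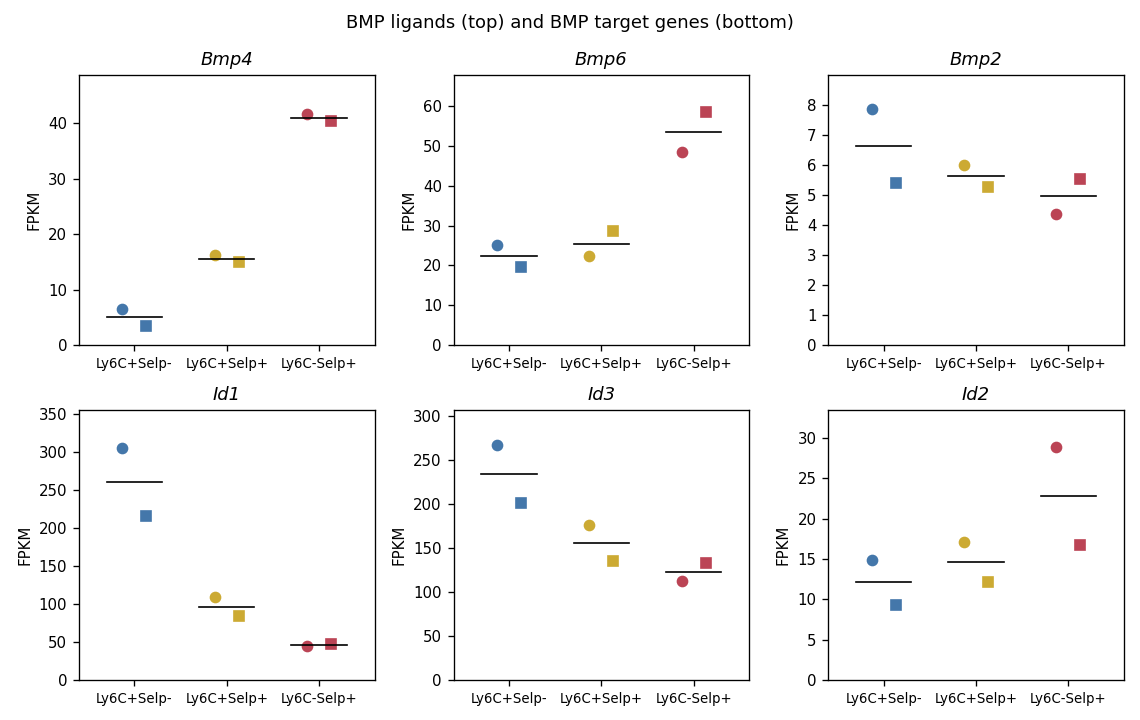
FPKM of 3 BMP ligands (top) and 3 BMP target genes (bottom) by subset, with circles for replicate 1, squares for replicate 2 and a line at the mean of 2 libraries. Bmp4 and Bmp6 are highest in type III ECs, at 41.6 and 40.4 and at 48.4 and 58.5, and Id1 is lowest there at 44.3 and 47.7.

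Of 28 other factors that act on thymic progenitors or epithelium, 18 were tested, 2 were higher and 3 were lower in type III than in type I ECs, where 2.09% of all tested genes were higher and 2.05% lower. Their median log2 fold change was -0.19, against 0.08 over all tested genes. Besides Bmp6 the higher gene was Rspo3, which encodes an enhancer of Wnt signals. Its FPKM was 0.15 and 0 in the type I libraries and 0.38 and 0.37 in the type II libraries. It was 4.67 and 2.47 in the type III libraries, on 22.8 and 21.0 estimated fragments there and 3 at most elsewhere. Rspo3 reached the FPKM of 1 that the filter asked for in the type III libraries alone. Its entry into the test thus hung on the subset where it was high, and its call cannot count as separate support. With the filter at an FPKM of 5 it was not tested. The log2 fold change was 2.05 (limma adjusted p = 0.024, standard error 0.41) and missed the threshold with a pseudocount of 0.1 (limma adjusted p = 0.053) and without type I replicate 1, type I replicate 2 or type III replicate 1 (limma adjusted p = 0.084, 0.13 and 0.19).

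The lower genes were the Notch ligands Dll4 and Jag2 and the chemokine Cxcl12, which acts on progenitors through Cxcr4. Cxcl12 had an FPKM of 521 and 360, 245 and 152, and 50.6 and 36.8 from type I through type II to type III libraries. The fibroblast and mural marker sums, of which Rgs5 was a large part, were also lowest in type III ECs. Of these markers, Dcn and Lum overlapped between type III and type I libraries, and Acta2 was higher in the type III libraries. The part of those cells in the Cxcl12 level was not tested. Dll4, the ligand that directs progenitors to the T lineage, had an FPKM of 49.8 and 53.6, 22 and 22.4, and 18.6 and 18.9, with most of the difference already present between type I and type II ECs, where it did not pass (limma adjusted p = 0.097). Its log2 fold change between type III and type I ECs was -1.41 (limma adjusted p = 0.010), and it missed the threshold without type I replicate 2, type III replicate 1 or type III replicate 2 (limma adjusted p = 0.054, 0.086 and 0.076). Jag2 fell by 2.24 and Cxcl12 by 3.30 on the log2 scale, and both passed in all 16 alternatives. Between type III and type II ECs, Cxcl12 fell by 2.13 (limma adjusted p = 0.042) and passed in 6 of the 16 alternatives, in none of the 6 that left out a library (limma adjusted p from 0.053 to 0.29).

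The other abundant factors on that list did not pass between type III and type I ECs. Il6 had an FPKM of 112 to 239 and Tgfb1 of 28.1 to 59.9 over the 6 libraries. Ccl25, a chemokine made by thymic epithelium, was at 41.4 and 5.67, 39.7 and 15.8, and 36.2 and 5.11, following the epithelial marker sums between replicates. Ccl19, Ccl21a and Il22 were listed at 0 in all 6 libraries. Of 17 genes for processing enzymes and antagonists, 9 were tested and none was called between type III and type I ECs (4 at an unadjusted p under 0.05 in limma, against 14.1% of all tested genes), with a median log2 fold change of 0.38 against 0.08 over all tested genes. Adam10 and Adam17, proteases that shed membrane proteins, were at 27.3 to 62.9 and 14.6 to 22.1, and Furin, which cleaves BMP precursors, was at 44.7 and 47.7, 30.0 and 28.7, and 24.6 and 27.1 (log2 fold change -0.81, limma adjusted p = 0.11). The BMP antagonists Nog, Chrd and Grem1 did not reach an FPKM of 1 in any library. Fst, which encodes the antagonist follistatin, was at 0.15 and 0.24, 0.39 and 0.50, and 1.67 and 1.21, with type III libraries above the others and a log2 fold change of 1.03 between type III and type I ECs that did not pass (limma adjusted p = 0.25).

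**Figure D5:**
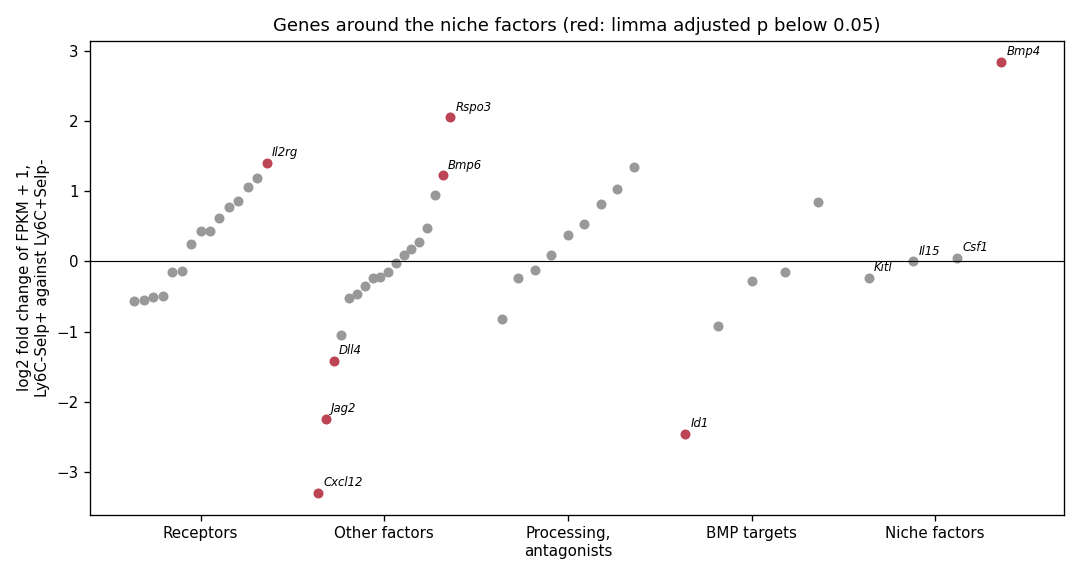
Log2 fold changes of FPKM + 1 between type III and type I ECs for the tested genes of the 4 lists and for the 4 tested factors, 1 point per gene in order of fold change, in red where the limma adjusted p was below 0.05. Bmp4 lies highest at 2.84, and Cxcl12, Id1 and Jag2 lie lowest, at -3.30, -2.46 and -2.24.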

How the data were processed

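RNA of the sorted subsets was made into libraries with the NEBNext Ultra kit and sequenced as paired-end reads. After trimming and mapping to mm9, the authors computed FPKM for each library separately, with its 95% interval. Per the labels the submitters' processing notes name CASAVA 1.8, TopHat2 2.0.10, Cufflinks 2.1.1 and Cuffdiff, and the gene annotation is not given in the sources used here. The deposited FPKM differ in their sum between libraries. Spike-in and reporter sequences (95 rows) were not used. Cuffdiff needs aligned reads, so log2(FPKM + 1) was tested for the 11717 genes that reached an FPKM of 1 in 2 or more libraries with limma 3.58.1 (R 4.3.3, eBayes with a trend), all 6 libraries in 1 fit with a mean per subset, Benjamini-Hochberg adjustment over all genes and a threshold of 0.05. This scale understates the fold changes of low genes.

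Estimated fragments were read back from each FPKM and the half-width of its interval, as if it held counting error alone, and the level of 3 fragments covers counting error only. Starts of loci were shifted by 1 base, since 12135 of 21192 starts then equalled an annotated start, against 732 without the shift. The factors and gene lists were chosen with earlier results of these data known. Named were the 6 factors, each listed gene past the threshold in any comparison, the 3 highest of each list, and the 3 genes most correlated with a factor past the threshold. Other genes of the lists and markers were named after their values were seen. There were 16 alternatives: pseudocounts of 0.1 and 0.5, no filter and a filter at 5, 3 scalings, the replicate number as a block, no trend, the compared libraries alone, and each of the 6 libraries left out. Values within 1 replicate number were added after seeing the data.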

Additional observations from a re-analysis of the deposited data

How the results depend on the processing

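Only 2 libraries per subset, with 22.8 to 245 estimated fragments for Bmp4 and 0 to 11.9 for Il7 and Wnt5a, limit these results. The call of Bmp4 between type III and type I ECs was kept in all 16 alternatives, so that the number of the 6 factors called there was 1 in each of the 6 fits without a library (1 to 1). Between type II and type I ECs it went from 0 to 1 (Bmp4) after each of the 3 scalings, with limma adjusted p-values of 0.022 for equal FPKM sums, 0.022 for the median of ratios and 0.021 for quantile normalization, and it was 0 in all 6 fits without a library. Over the alternatives the adjusted p of Bmp4 in limma ranged from 0.021 to 0.48 in that comparison and from 0.037 to 0.66 between type III and type II ECs. Scaling to equal FPKM sums moved the median log2 fold change of all genes from 0.14 to -0.06 between type III and type II ECs, from 0.08 to -0.05 between type III and type I ECs and from -0.06 to 0.00 between type II and type I ECs.

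Replicates are numbered 1 and 2 in each subset, and no label says what libraries of the same number share. The deviations of same-numbered libraries from their subset means correlated at 0.18 to 0.31 across 11717 genes. With the replicate number as a block, 971 genes passed in place of 485 between type III and type I ECs, 183 in place of 46 between type II and type I ECs and 229 in place of 26 between type III and type II ECs. Under this block Bmp4 also passed in the latter 2 comparisons, where the number of factors called was 1 in each (limma adjusted p = 0.025 and 0.037), and the calls of Kitl, Csf1 and Il15 did not change.

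Counts over all genes moved with other settings. Without a filter 317, 12 and 0 genes passed in the order type III against type I, type II against type I and type III against type II ECs, in place of 485, 46 and 26, and limma gave 1354 in the last at an unadjusted p under 0.05 without the filter. Equal sums, the median of ratios and quantile normalization gave 97, 101 and 103 genes in place of 46 and 109, 96 and 90 in place of 26. Of the 485, 245 were higher and 240 lower in type III ECs; after equal sums, the median of ratios and quantile normalization 292, 327 and 313 were higher and 417, 383 and 381 lower, and without type I replicate 1 231 were higher and 113 lower. Of the 46, 38 were higher and 8 lower in type II ECs, and after the 3 scalings 74, 72 and 73 were higher and 23, 29 and 30 lower. Of the 26, 11 were higher and 15 lower in type III ECs, and with those scalings 18, 28 and 22 were higher and 91, 68 and 68 lower. Without the trend the counts were 15 and 10, and with the compared libraries alone 29 and 7. Leaving out a library gave 209 to 404, 12 to 33 and 2 to 14 genes. In the first of these comparisons the count was 249 without type I replicate 2, 209 without type III replicate 1 and 219 without type III replicate 2. In the next it was 17 without type I replicate 2, 24 without type II replicate 1, 12 without type II replicate 2, 29 without type III replicate 1 and 28 without type III replicate 2. In the last it was 8 without either type I library, 4 and 14 without type II replicates 1 and 2, and 6 and 2 without type III replicates 1 and 2. The causes were not tested.

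The signs of Kitl, Csf1 and Il15, none of which passed in any setting, were not stable in 23 of their 144 repeats, and 121 kept them. The log2 fold change of Csf1 went from 0.05 to -0.10, -0.035 and -0.064 with equal sums, the median of ratios and quantile normalization between type III and type I ECs, and from 0.15 to -0.074 and -0.045 with equal sums and quantile normalization between type III and type II ECs. That of Il15 went from 0.00 to -0.092, -0.048 and -0.082 with the same 3 scalings, and from 0.15 to -0.0225 with equal sums between type III and type II ECs. Without a library, and in the order of comparisons above, Kitl ranged from -0.63 to 0.17, -0.56 to 0.24 and -0.33 to 0.19, Csf1 from -0.12 to 0.22, -0.32 to 0.13 and -0.078 to 0.37, and Il15 from -0.81 to 0.81, -0.96 to 0.66 and -0.25 to 0.55.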
